A study of Homo sapiens with 14 samples.

Results

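The enzymes described here make or break down the biogenic amines: DDC, MAOA, MAOB, AOC1 (diamine oxidase, an older symbol of which is ABP1) and HNMT. They were taken by gene symbol, with all of their probes, and make up 5 of the 20046 genes named on the arrays. They carried 9 probes, 5 of them for HNMT. Expression was measured on 14 Illumina bead arrays of the human prostate cancer cell lines LNCaP, 22RV1 and PC-3M, to find the genes under the transcription factor FoxA1. In each pair below the array labelled FoxA1 was compared with its control, and the R1881 arrays with the hormone-deprived arrays. The genes were chosen with the results of these comparisons known, so their values are a description and no p is given for them.

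LNCaP, an androgen-sensitive line from a lymph node metastasis, carried an shRNA against FoxA1 (shFoxA1, 4 arrays) or a control shRNA (shCtrl, 4 arrays). Each of these groups had 2 arrays numbered as replicates with no medium in the title, 1 array labelled R1881, a synthetic androgen, and 1 labelled hormone-deprived. The protocol, worded the same for all 8 arrays, gives both shRNA lines 3 days in charcoal-stripped medium and then 24 hours of 1 nM R1881, which goes against the title of the hormone-deprived arrays, and the descriptions count the R1881 arrays as replicate 3, so the numbered arrays may also have had R1881. LNCaP was also treated with siRNA against FoxA1 (siFoxA1) or control siRNA (siCtrl), 1 array each. The line 22RV1, stable FoxA1 knockdown per the design text, had 1 shFoxA1 and 1 shCtrl array. For the siRNA and 22RV1 arrays the protocol names full serum and, for some experiments it does not identify, that same charcoal-stripped and R1881 treatment, so their medium is not settled. PC-3M, a metastatic line, had 1 array labelled FoxA1, which the labels call overexpression, and 1 control array, grown in full serum. The labels do not say whether a line was 1 clone or a pool, how many shRNA sequences were used, or whether replicates were separate cultures, so the p-values below measure only the spread between arrays. Each of the 3 deposited tables (LNCaP shRNA, siRNA with 22RV1, PC-3M) was normalized by itself, so levels are compared only within a table.

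The share of probes detected per array was 34.3 to 42.6% for LNCaP shRNA, 47.1 to 52.5% for siRNA and 22RV1, and 39.6 to 41.3% for PC-3M. FOXA1 itself was lower in 6 of 6 knockdown pairs, with log2 differences of -0.73 to -1.28 in the 4 LNCaP shRNA pairs, -0.81 in the siRNA pair and -1.11 in 22RV1. In PC-3M it was 8.89 on the array labelled FoxA1 and 10.40 on the control array, a log2 difference of -1.51 against the label, by 1 probe whose place in the transcript was not checked. KLK3, an androgen-induced kallikrein, was higher with R1881 than in hormone-deprived medium by 0.93 in shFoxA1 and by 2.20 in shCtrl. Of 6 luminal prostate markers with a probe, 5 were detected on all 8 LNCaP shRNA arrays and 6 on all 4 siRNA and 22RV1 arrays, while in PC-3M 3 were detected on both arrays and 3, KLK3 among them, on neither.

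Biogenic amines are small messengers made from amino acids. DDC, the aromatic L-amino acid decarboxylase, turns L-DOPA into dopamine and 5-hydroxytryptophan into serotonin, and is also used as a marker of neuroendocrine cells. MAOA and MAOB are flavin enzymes of the outer mitochondrial membrane that oxidize monoamines to aldehydes and release hydrogen peroxide. MAOA prefers serotonin and noradrenaline, and MAOB prefers phenylethylamine. AOC1, a secreted copper enzyme, oxidizes histamine and putrescine outside cells, and HNMT methylates histamine in the cytosol. In the prostate, MAOA is found in epithelial cells and has been linked with high-grade cancer.

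FoxA1 is a forkhead factor, so the 250 bases before the annotated starts of DDC, which RefSeq gives as separate windows, and of MAOA are shown, these being the 2 genes whose values carry the results. The sequences are from RefSeq on GRCh38.p14, in the direction of the gene, at chr7:50565406-50565655 (minus strand), chr7:50561072-50561321 (minus strand) and chrX:43656049-43656298 (plus strand). Capitals mark a match to a searched motif.
DDC window 1: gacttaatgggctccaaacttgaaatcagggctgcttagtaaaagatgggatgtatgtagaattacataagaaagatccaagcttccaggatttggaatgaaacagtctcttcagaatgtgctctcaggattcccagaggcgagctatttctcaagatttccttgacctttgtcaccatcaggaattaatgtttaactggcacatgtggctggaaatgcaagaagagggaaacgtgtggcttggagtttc
DDC window 2: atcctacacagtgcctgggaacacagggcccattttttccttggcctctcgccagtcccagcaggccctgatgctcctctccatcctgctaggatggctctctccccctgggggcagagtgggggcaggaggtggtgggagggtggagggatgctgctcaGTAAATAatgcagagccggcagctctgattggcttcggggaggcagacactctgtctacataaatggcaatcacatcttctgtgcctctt
MAOA window: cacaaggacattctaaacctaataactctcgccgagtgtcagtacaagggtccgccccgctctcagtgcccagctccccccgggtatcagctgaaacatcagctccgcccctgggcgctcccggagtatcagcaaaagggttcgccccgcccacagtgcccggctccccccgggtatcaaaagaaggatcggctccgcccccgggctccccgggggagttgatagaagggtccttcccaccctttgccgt
The motifs searched on both strands were the forkhead letters TGTTTAC and TGTTTGC and the androgen response hexamer AGAACA, and none of these letters stood in any window of the 5 genes. TATTTAC, another forkhead form, was added after the windows had been read. It stood once, on the opposite strand at positions -90 to -84 of DDC window 2, counted back from the start. Of 35116 promoter windows of this length, 2.979% held TGTTTAC, 3.232% TGTTTGC, 2.395% TATTTAC and 12.388% AGAACA. At least 1 of these forkhead forms stood in 8.273% of the windows. These matches describe letters only, since binding was not measured on the arrays.

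DDC was lower with FoxA1 knockdown in LNCaP and in 22RV1. In the LNCaP shRNA arrays its normalized log2 intensity was 4.50 and 4.58 on the numbered shFoxA1 arrays, against 8.41 and 7.62 on the numbered shCtrl arrays. It was 5.98 in shFoxA1 and 9.27 in shCtrl on the R1881 arrays. On the hormone-deprived arrays it was 9.35 in shFoxA1 and 11.35 in shCtrl. Both numbered shFoxA1 arrays were below the detection limit (detection p of 0.05 against negative controls), while the other 6 arrays were above it. The groups overlapped across media, since hormone-deprived shFoxA1 was brighter than shCtrl with R1881, but within every medium label shFoxA1 was the dimmer.

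Before normalization the same contrast was visible in the deposited background-subtracted intensities of DDC. They were -15.6, -8.3, 38.4 and 462.9 in shFoxA1, against 358.5, 176, 895 and 2302.7 in shCtrl, in the order replicate 1, replicate 2, R1881 and hormone-deprived. The log2 differences of the 4 pairs in that order were -3.91, -3.04, -3.28 and -2.00 (SD 0.80, n = 4). The numbered arrays were matched by number only, and the pairs span different medium labels. This SD, like that of the MAOA pairs below, is therefore not a spread of replicates. The fit over all 8 arrays gave a log2 difference of -3.06 (SE 0.27), and -2.35 with a larger offset of 50 in the background correction. It includes the 2 undetected shFoxA1 arrays, so its size depends on the offset and is no bound. Among the decreases of the 11892 genes tested it ranked 1, and 2 with an offset of 50.

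The size of that difference has a floor where DDC went undetected. Taken against the detection limit of the shFoxA1 array, DDC was at least 8.82-fold lower in replicate 1 and at least 5.14-fold lower in replicate 2 on the scale with an offset of 16. With an offset of 50 these bounds were 5.16-fold and 3.20-fold, the lowest of the 7 settings of background and normalization tried. Over the numbered replicates it averaged 4.54 ± 0.056 in shFoxA1 and 8.02 ± 0.56 in shCtrl (SD, n = 2 each), and the mean was at least 6.74-fold lower, or 4.06-fold with an offset of 50. Over all 4 pairs, with undetected values raised to the limit, it was at least 6.48-fold lower, or 4.54-fold with an offset of 50. A lower level in such bulk RNA cannot be told apart from fewer cells that express the gene.

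The other knockdowns lay on the same side. In LNCaP with siRNA, DDC was 7.28 in siFoxA1 and 9.64 in siCtrl (deposited intensity 252.4 and 1223.7), 5.13-fold lower. In 22RV1 it was 6.18 in shFoxA1 and 7.39 in shCtrl (122.1 and 260.3), 2.30-fold lower. In PC-3M the probe was below the detection limit on both arrays, so no fold is given. DDC was therefore at least 2-fold lower in 6 of the 7 pairs, but in 5 without background correction or with an offset of 50, where 22RV1 differed by -0.72 and -0.92 on the log2 scale. Among all genes detected on either array of a pair, the share at least 2-fold lower was 6.68% in replicate 1, 2.42% in replicate 2, 1.87% with R1881, 0.657% in hormone-deprived medium, 1.18% with siRNA, 1.39% in 22RV1 and 1.44% in PC-3M. No pair had a replicate of its own except the numbered ones, so each of these is a difference between 2 arrays.

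**Figure D1:**
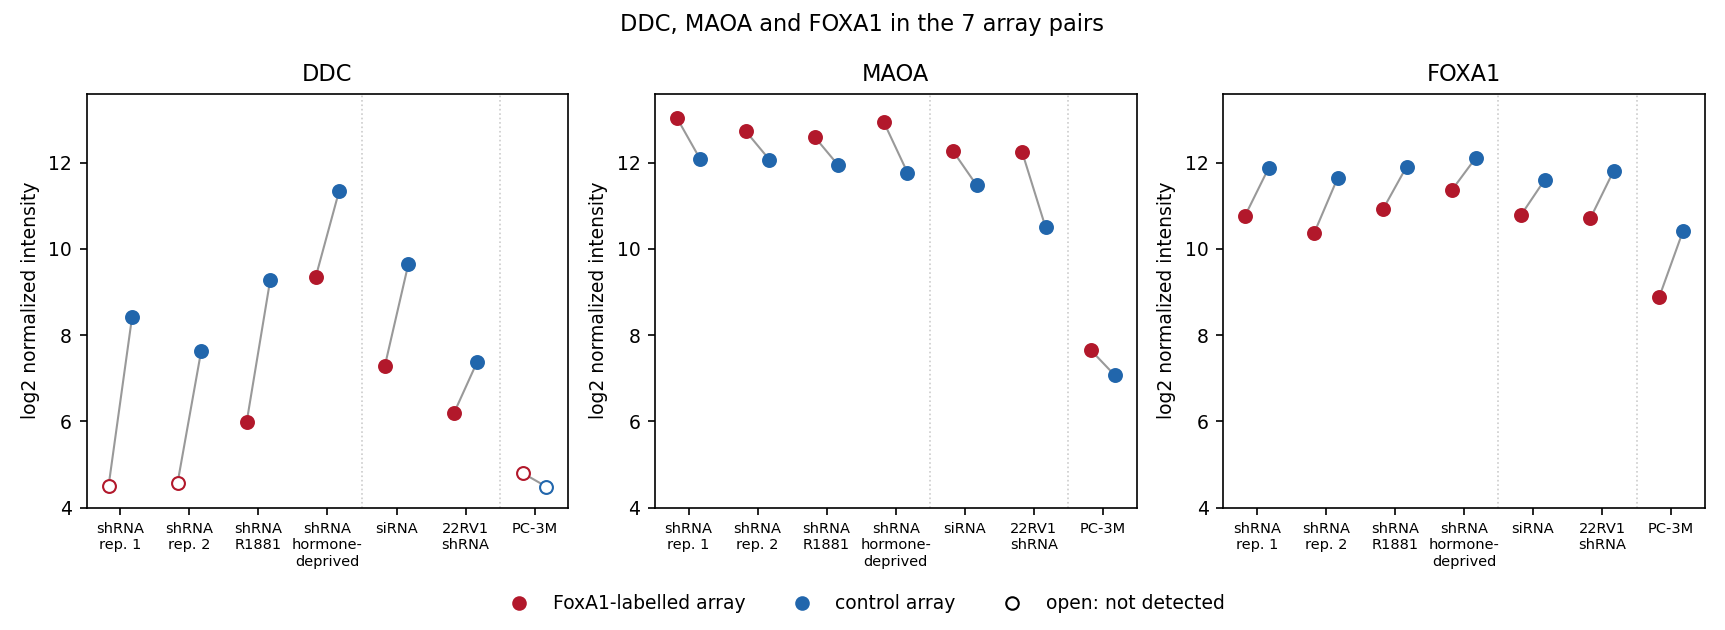
Normalized log2 intensity of DDC, MAOA and FOXA1 in the 7 pairs, with the FoxA1-labelled array (red) left of its control (blue), 1 point per array, and open points not detected. The dotted lines separate the 3 tables, which were normalized apart. DDC and FOXA1 slope up to the control and MAOA slopes down to it in the LNCaP and 22RV1 pairs, while in PC-3M DDC was undetected, and the R1881 pair of MAOA turns with no normalization.

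MAOA was higher in the 6 knockdown pairs, except that its R1881 pair turned with no normalization between arrays. Its normalized log2 intensity was 13.04, 12.72, 12.59 and 12.93 in shFoxA1 (replicate 1, replicate 2, R1881, hormone-deprived), against 12.07, 12.07, 11.93 and 11.77 in shCtrl. After quantile normalization the 2 groups did not overlap. The share of all genes without overlap was not counted, so this does not set MAOA apart. The pair differences were 0.96, 0.66, 0.65 and 1.16 on the log2 scale (SD 0.25, n = 4), and the fit gave 0.86 (SE 0.13), or 1.81-fold higher in shFoxA1. The numbered replicates averaged 12.88 ± 0.22 in shFoxA1 and 12.07 ± 0.0041 in shCtrl (SD, n = 2 each). By size, MAOA ranked 341 among the increases of the 11892 genes.

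The R1881 pair of MAOA depended on the normalization. Its deposited intensity there was 4833 in shFoxA1 and 5585.1 in shCtrl, the opposite order, on arrays whose mean intensity over all probes was 167 and 285. With each array scaled only by its median the log2 difference was 0.019, and with no normalization between arrays it was -0.21. In the other 3 LNCaP pairs the deposited intensity kept the order of the normalized values, at 8058.8, 8042.3 and 5725 in shFoxA1 against 4885.8, 4700 and 3059.3 in shCtrl.

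In the remaining pairs MAOA lay on the same side. With siRNA it was 12.26 in siFoxA1 and 11.48 in siCtrl, a difference of 0.79. In 22RV1 it was 12.25 in shFoxA1 and 10.50 in shCtrl, 3.35-fold higher. The log2 difference there was 1.75, but 1.18 with median scaling and 1.03 with no normalization. In PC-3M it was 7.64 on the array labelled FoxA1 and 7.07 on the control array (deposited intensity 178.1 and 123.1), 1.49-fold higher. MAOA was thus higher in 6 of 6 knockdown pairs after quantile normalization, the R1881 pair turning without it, and also on the PC-3M array labelled FoxA1, where FOXA1 went against the label. The share of all genes higher in all 6 knockdown pairs was not counted, so this count does not set MAOA apart. MAOA was at least 2-fold higher in 2 of the 7 pairs, hormone-deprived LNCaP (2.24-fold) and 22RV1. The hormone-deprived pair missed 2-fold with median scaling (0.95 on the log2 scale) and with no normalization (0.90), while replicate 1 reached it with cyclic loess (1.03) and in the deposited matrix (1.02). The share of all genes at least 2-fold higher was 1.14% in the hormone-deprived pair and 1.74% in 22RV1, and over the other pairs it was 8.27% in replicate 1, 3.52% in replicate 2, 1.87% with R1881, 2.18% with siRNA and 1.05% in PC-3M.

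MAOB, whose gene lies beside MAOA on chromosome X, was measured by 1 probe that was not detected on any LNCaP shRNA or PC-3M array. It was just above the limit on the siFoxA1 array (4.75, against 4.31 in siCtrl) and on the 22RV1 shFoxA1 array (4.85, against 4.37 in shCtrl). Against the limit of the control array the ratio ran from 1 (no difference, in the deposited matrix) to 1.38 with siRNA and from 1 to 1.34 in 22RV1 over the 7 settings, so no difference is claimed. In 22RV1 the deposited intensity was 92.5 in shFoxA1 and 94 in shCtrl, so the order there came with the background correction and normalization. MAOA and MAOB are close paralogues, and their probes were not checked for cross-hybridization.

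AOC1 stood out on 1 array. In hormone-deprived medium its log2 intensity was 8.46 in shFoxA1, detected, and 4.90 in shCtrl, not detected (deposited intensity 251.6 and 7.6). That is at least 10.5-fold higher in shFoxA1 with an offset of 16, and at least 5.72-fold with an offset of 50, the lowest of the 7 settings. On the other 6 LNCaP shRNA arrays it lay between 4.43 and 4.86, all below the limit. The siRNA pair gave 5.02 in siFoxA1, detected, and 4.19 in siCtrl, not detected. The ratio to the limit ran from 1.11 to 1.80 over the 7 settings. In 22RV1 (4.56 in shFoxA1, 4.34 in shCtrl) and PC-3M (4.43 on both arrays) it was undetected. The hormone-deprived shFoxA1 array has no replicate, and AOC1 has 1 probe, so no second measurement bears on this value.

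HNMT was near or below the limit in LNCaP and clearly above it in 22RV1 and PC-3M. Of its 5 probes, ILMN_1713685 and ILMN_2284744 were detected on no array. ILMN_1751789 was detected on 6 arrays, ILMN_1790881 on 5 and ILMN_1705984 on 4 of the 14. On the LNCaP shRNA arrays only ILMN_1790881 passed the limit, on 1 of 8 arrays, at 5.31 in shFoxA1 replicate 1 against 5.25 in shCtrl replicate 1.

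In 22RV1 the probe ILMN_1751789 was 7.12 in both shFoxA1 and shCtrl, and ILMN_1790881 was 6.66 in shFoxA1 and 7.22 in shCtrl, a difference of -0.55. Both are annotated to NM_001024074. The deposited intensities were 161.7 in shFoxA1 and 230.3 in shCtrl for ILMN_1751789, and 139.5 in shFoxA1 and 240.7 in shCtrl for ILMN_1790881. With median scaling ILMN_1751789 differed by -0.58 and with no normalization by -0.73, so its value depended on the normalization. In PC-3M, ILMN_1751789 was 6.89 on the array labelled FoxA1 and 7.22 on the control array, and ILMN_1790881 was 7.28 and 7.78 in that order, differences of -0.33 and -0.50. No HNMT probe chosen for the gene reached 2-fold in any of the 7 pairs. In the siRNA pair the detected probes pointed opposite ways, at 0.090 for ILMN_1751789 and -0.22 for ILMN_1705984.

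**Figure D2:**
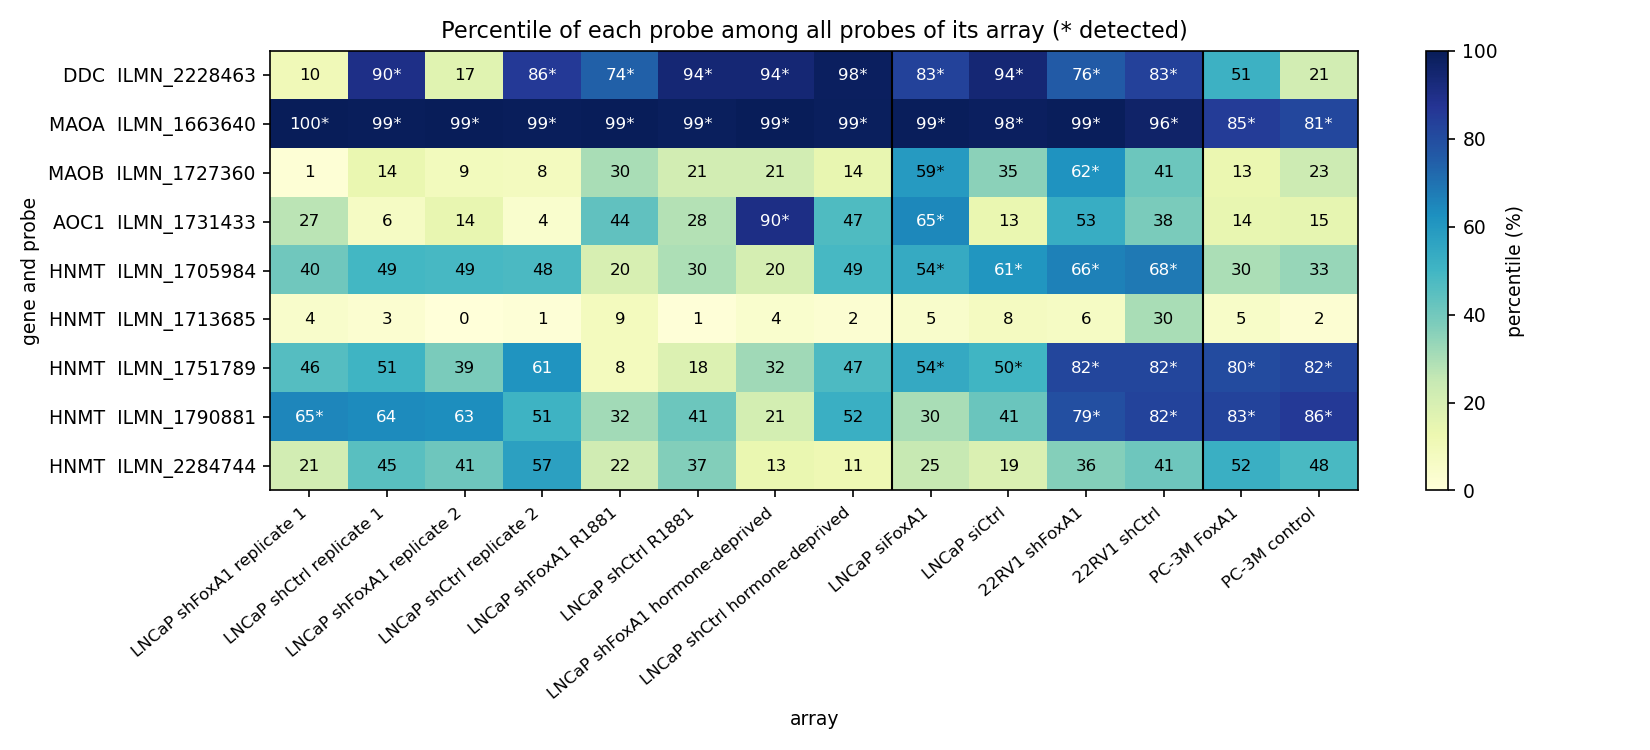
Percentile of each of the 9 probes (rows) among all probes of its array (columns, FoxA1-labelled array left of its control), as colour and number, with an asterisk where detected. Rows are read along, since probes differ in brightness for the same amount of RNA. MAOA sat between 96 and 100 in LNCaP and 22RV1 and between 81 and 85 in PC-3M, DDC fell to 10 and 17 on the numbered shFoxA1 arrays, and AOC1 reached 90 on the hormone-deprived shFoxA1 array.

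A rank within each array allows a loose view across the 3 tables. The DDC probe was brighter than 10.3, 16.7, 74.4 and 94.0% of probes in shFoxA1 LNCaP, against 90.2, 85.9, 93.8 and 98.2% in shCtrl. It stood at 82.8% in siFoxA1 and 93.9% in siCtrl, and at 75.9% in shFoxA1 and 83.5% in shCtrl in 22RV1. The MAOA probe lay between 98.7 and 99.5% on all 8 LNCaP shRNA arrays, and in PC-3M at 84.9% on the array labelled FoxA1 and 81.3% on the control array. The HNMT probe ILMN_1751789 stood at 81.9% on both 22RV1 arrays, and in PC-3M at 80.2% on the array labelled FoxA1 and 82.3% on the control array, against 8.21 to 60.9% on the LNCaP shRNA arrays. The percentile depends on the make-up of each array and is not an amount of RNA.

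DDC was lower with R1881 than in hormone-deprived medium, with either shRNA. In shFoxA1 it was 5.98 with R1881 and 9.35 hormone-deprived, a log2 difference of -3.36 or 10.3-fold lower. In shCtrl it was 9.27 with R1881 and 11.35 hormone-deprived, a difference of -2.08 or 4.22-fold lower. The difference between these, shFoxA1 minus shCtrl, was -1.28, from 1 array per condition and with no test. Its size depended on the processing. With an offset of 50 the 2 values were -2.81 in shFoxA1 and -2.02 in shCtrl. With no normalization between arrays they were -3.15 and -1.35 in that order. KLK3 moved the other way on the same arrays, and the same subtraction gave -1.27. For KLK3 that is a smaller rise in shFoxA1, and for DDC a larger fall, so the like values do not describe a like change.

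AOC1 was 4.86 with R1881 and 8.46 hormone-deprived in shFoxA1, at least 10.1-fold lower with R1881 (5.60-fold with an offset of 50), and below the limit on both shCtrl arrays. The shares of all genes at least 2-fold lower with R1881 were 1.74% in shFoxA1, where 2 of the 3 detected genes of the group were lower, and 1.33% in shCtrl, where 1 of the 2 detected was lower. None was 2-fold higher with R1881, against 1.24% of all genes in shFoxA1 and 1.44% in shCtrl. MAOA differed by -0.34 in shFoxA1 and by 0.17 in shCtrl. In shCtrl this became 0.71 with median scaling and 0.86 with no normalization. MAOB was undetected on these 4 arrays, as was HNMT.

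**Figure D3:**
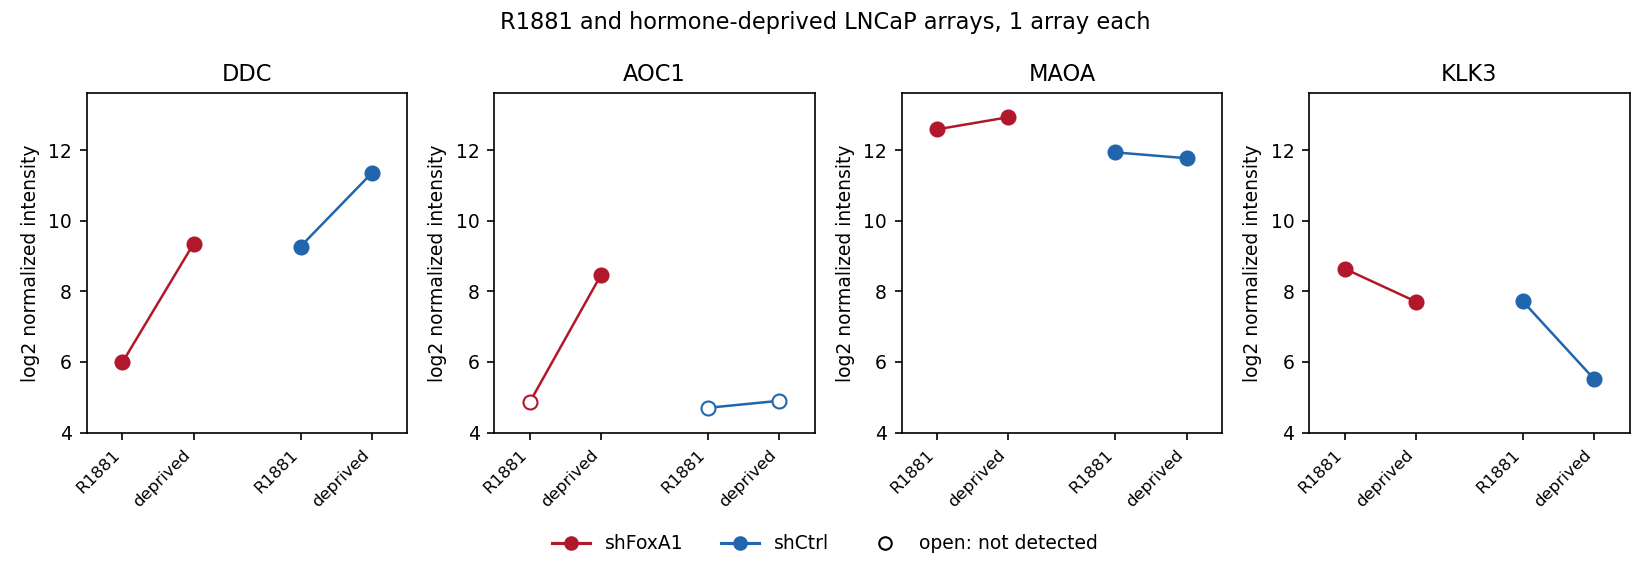
Normalized log2 intensity of DDC, AOC1, MAOA and KLK3 on the R1881 and hormone-deprived LNCaP arrays, shFoxA1 in red and shCtrl in blue, 1 array per point and open where not detected. DDC was lower with R1881 for both shRNAs (5.98 against 9.35, and 9.27 against 11.35), AOC1 was detected only on the hormone-deprived shFoxA1 array, and KLK3 was higher with R1881.

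Within the LNCaP shRNA table the levels of DDC ran from hormone-deprived shCtrl at the top through hormone-deprived shFoxA1, R1881 shCtrl, numbered shCtrl and R1881 shFoxA1 to numbered shFoxA1 at the bottom. Hormone-deprived shFoxA1 and R1881 shCtrl (9.35 and 9.27) lay closer together than the SD of the numbered shCtrl arrays (0.56), so their order is not resolved. For MAOA every shFoxA1 array lay above every shCtrl array after quantile normalization, an order whose share over all genes was not counted. In the deposited intensities shFoxA1 with R1881 (4833) lay below shCtrl replicate 1 (4885.8) and shCtrl with R1881 (5585.1). The shFoxA1 levels of MAOA (12.59 to 13.04) spanned little more than the 2 numbered arrays did (12.72 and 13.04), so no order of media is resolved among them.

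By distance over the 4 LNCaP pair differences (root mean square, log2), the genes nearest to DDC were SLC45A3, the prostate membrane protein prostein, at 0.63, and the relaxins RLN2 at 0.67 and RLN1 at 0.69. SLC45A3 differed by -3.47, -3.35, -2.21 and -1.62, RLN2 by -2.97, -2.52, -2.51 and -1.91, and RLN1 by -2.67, -2.79, -3.31 and -2.52, in the order replicate 1, replicate 2, R1881 and hormone-deprived. These distances use DDC values from the 2 undetected arrays. RLN2 and RLN1 were among the nearest 3 in each of the 7 settings and with undetected values raised to the limit, while SLC45A3 gave way to MCCC2 with an offset of 50 and with the raised values. RLN1 and RLN2 are near-identical genes whose probes may share signal. Nearest to MAOA were SKAP2, an adaptor protein of the Src family kinases, at 0.067, PCNX1 at 0.11 and ANKMY2 at 0.13, of which SKAP2 was among the nearest 3 in each setting and the others were not. All were nearest out of the 11892 genes tested, which is a ranking and not a test.

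The rest of the amine pathway was read from 6 lists of 86 genes without the 5 above, of which 74 had a named probe and 31 passed the detection filter (2 or more of 8 arrays). With FoxA1 knockdown in LNCaP 2 of the 31 rose, 2 fell and 27 passed in neither direction (limma, Benjamini-Hochberg adjusted p below 0.05 over all genes). Over all 11892 genes 7.9% passed, 4.15% higher and 3.74% lower. The median log2 difference was 0.11 over the 31 genes and -0.0070 over all genes. Unadjusted p was below 0.05 for 11 of the 31 (35.5%) and for 27.3% of all genes.

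The genes that passed came from the lists of aldehyde handling and of transport. ALDH2, the mitochondrial aldehyde dehydrogenase best known for acetaldehyde, was 5.16, 4.88, 5.59 and 6.13 in shFoxA1, against 6.64, 7.07, 6.64 and 7.02 in shCtrl. It fell by 1.40 (SE 0.20, limma adjusted p = 0.0130), with the 2 numbered shFoxA1 arrays below the limit. ALDH1B1, its close mitochondrial relative, was 6.93, 7.72, 7.03 and 7.22 in shFoxA1, against 8.97, 8.56, 8.52 and 8.05 in shCtrl. It fell by 1.30 (SE 0.21, limma adjusted p = 0.0164).

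ALDH3A2, the fatty aldehyde dehydrogenase, went the other way. It was 11.39, 10.63, 10.56 and 10.71 in shFoxA1, against 9.56, 9.41, 9.09 and 10.17 in shCtrl. It rose by 1.26 (SE 0.22, limma adjusted p = 0.0203). SLC7A8, a transporter of large neutral amino acids that also carries L-DOPA, was 8.69, 8.81, 8.15 and 7.70 in shFoxA1, against 7.61, 7.92, 7.26 and 6.85 in shCtrl. Its groups overlapped across media, while all 4 pairs were higher in shFoxA1, and it rose by 0.93 (SE 0.12, limma adjusted p = 0.00918). These calls rest on few arrays. Without the replicate 2 pair, or without the R1881 pair, 0 list genes passed (7 and 9 had an unadjusted limma p below 0.05), without shCtrl replicate 2 it was 2, and over all settings the adjusted p ran from 0.000669 to 0.106 for ALDH2, 0.00249 to 0.106 for ALDH1B1, 0.0133 to 0.137 for ALDH3A2 and 0.00657 to 0.134 for SLC7A8.

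In the siRNA pair the 4 genes lay on the same sides, at -0.69 for ALDH2, -0.86 for ALDH1B1, 1.14 for ALDH3A2 and 1.04 for SLC7A8. In 22RV1 they were -0.47 for ALDH2 (undetected in shFoxA1), -0.93 for ALDH1B1, 0.22 for ALDH3A2 and 0.11 for SLC7A8. In PC-3M ALDH2 was undetected, and the array labelled FoxA1 differed from control by 0.054 for ALDH1B1, -0.082 for ALDH3A2 and -1.13 for SLC7A8.

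By role, the 8 measured synthesis genes, which include the rate-limiting hydroxylases TH, TPH1 and TPH2 and histidine decarboxylase HDC, had 0 members past the detection filter, so nothing can be said of them in LNCaP. Of the 9 tested genes of tetrahydrobiopterin and cofactor supply, which serve those hydroxylases and the flavin enzymes, 0 passed in limma, and 4 (44.4%) had an unadjusted p below 0.05, against 27.3% of all genes. The nearest was FLAD1, which makes FAD, at -0.64 (limma adjusted p = 0.0516). Of the 4 tested genes of breakdown and conjugation, 0 passed and 1 had an unadjusted p below 0.05.

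Among the 6 tested genes of aldehyde handling, 1 rose, 2 fell and 3 did neither, ALDH9A1, which oxidizes aminoaldehydes, being nearest at 0.42 (limma adjusted p = 0.0502). Of the 5 tested transport genes 1 rose and 4 did neither. Of the 7 tested amine receptors, out of 30 with a probe, 0 passed and 1 had an unadjusted p below 0.05.

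**Figure D4:**
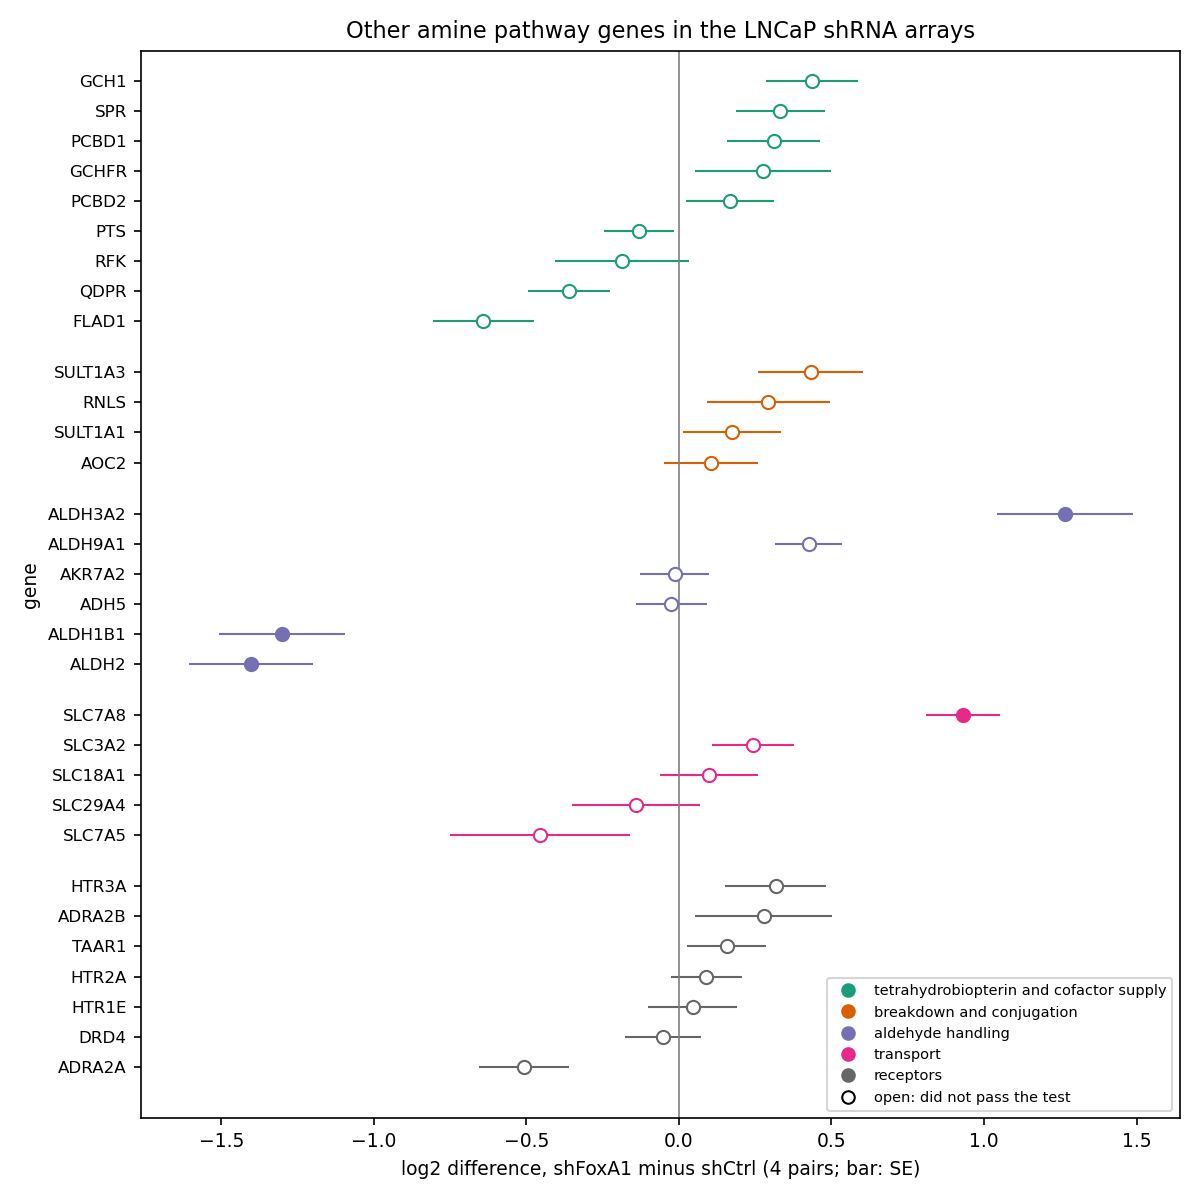
Log2 difference (shFoxA1 minus shCtrl, limma fit over 4 pairs, bars are the SE) of the 31 tested amine pathway genes outside the 5 enzymes, grouped and coloured by role, filled where the adjusted p was below 0.05. ALDH2 and ALDH1B1 lie at -1.40 and -1.30, ALDH3A2 at 1.26 and SLC7A8 at 0.93, and the other 27 points are open.

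Markers of other cells were read beside these values. Of 8 neuroendocrine markers with a probe, 3 were tested and 0 passed in limma (0 with an unadjusted p below 0.05), and CHGB, SYP, SCG2 and NCAM1 were undetected on all 8 LNCaP shRNA arrays. Their summed normalized intensity was 219.2 to 652.1 in shFoxA1 and 236.1 to 291.7 in shCtrl. The top value was that of shFoxA1 replicate 1, where ENO2, a neuronal enolase, was 8.83, against 5.90 in shCtrl replicate 1. DDC was undetected on that shFoxA1 array.

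Mast cell markers, read because mast cells hold histamine, summed to 104.1 to 138.7 in shFoxA1 and 103.9 to 144.1 in shCtrl, and 0 of 2 tested passed (0 with an unadjusted p below 0.05). Fibroblast markers likewise had 0 of 2 past the test (0 unadjusted), with sums of 159.6 to 190.3 in shFoxA1 and 145.3 to 177.7 in shCtrl. Of the leukocyte and endothelial markers, 1 of 3 tested fell, the clotting protein VWF at -0.97 (limma adjusted p = 0.0107). VWF was below the limit on both numbered shFoxA1 arrays (5.00 and 4.71), so this size is no bound. In the same list 2 had an unadjusted p below 0.05, CD68 lying on the other side at 0.63, while PTPRC and CDH5 were undetected on all 8 arrays. That list summed to 523.6 to 904.2 in shFoxA1 and 374.3 to 895.3 in shCtrl. Of the 6 luminal prostate markers, KLK3 and KLK2 rose and 4 did neither (3 with an unadjusted p below 0.05, KRT8 among them at 0.67), and the list summed to 2199 to 4957 in shFoxA1 and 1421 to 5064 in shCtrl. The part of these markers in the differences of DDC and MAOA was not tested.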

How the data were processed

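Biotin-labelled total RNA was hybridized to 14 Illumina arrays, and the submitters' processing notes name GenomeStudio, with no version. The authors deposited probe intensity, not normalized between arrays: background-subtracted in the LNCaP shRNA and PC-3M tables, raw in the siRNA and 22RV1 table. The first 2 of these tables also hold a detection p-value per probe, per the file headers. In the third, the 4 columns headed so hold whole numbers and were not used. The authors' deposited matrix of linear intensity for all 14 arrays was used as an alternative only. Of 47323 probes, 30113 carry 1 gene symbol in the platform annotation.

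Each table was processed apart in R 4.3.3 with limma 3.58.1: normexp correction with an offset of 16, quantile normalization and log2. Without detection p-values, background was the mode of an array's intensities, and the limit lay 1.645 SD above it. Probes detected on at least 2 of 8 LNCaP shRNA arrays were kept (22177 probes), with the brightest probe per gene, 11892 genes. The fit (lmFit, eBayes) had knockdown and the medium label as terms, 4 residual and 4.41 prior degrees of freedom, two-sided with Benjamini-Hochberg adjustment. It holds unreplicated differences between media in its spread. It was run on simulated data with independent noise and no effects of medium or array, which does not bear on that spread. Other pairs have 1 array per group and no test, and genes were counted there if they differed by 2-fold or more and were detected on whichever array was brighter. The number of arrays limits the precision.

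Beside the 5 genes, the text names FOXA1, KLK3, up to 4 list genes and markers past the test, the 3 genes nearest to DDC and MAOA, and others chosen after their values were seen. The genes, lists and motifs were chosen with earlier results of these data known. Alternatives covered background, offset, normalization, the deposited matrix, filters, model terms, other probes and left-out arrays. Same-numbered shFoxA1 and shCtrl arrays deviated from their group means with a correlation of -0.173 over 11892 genes, so the numbers were not taken as pairs in the fit.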

Additional observations from a re-analysis of the deposited data

Results flagged for a closer look

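MAOA differed in direction between the shRNAs when R1881 was compared with hormone-deprived medium, at -0.34 in shFoxA1 and 0.17 in shCtrl on the log2 scale. Each value rests on 2 arrays, and the difference between them was not tested. The numbered shFoxA1 arrays alone lay about as far apart (13.04 and 12.72), so the -0.34 is not resolved. In shCtrl the value became 0.71 with median scaling. In PC-3M, 3 amine pathway genes lay on the other side of 0 from all 5 LNCaP pairs: ALDH1B1 at 0.054, ALDH3A2 at -0.082 and SLC7A8 at -1.13, array labelled FoxA1 minus control. In the LNCaP pairs ALDH1B1 was between -2.03 and -0.83, ALDH3A2 between 0.54 and 1.83 and SLC7A8 between 0.85 and 1.09. In PC-3M the values of ALDH1B1 and ALDH3A2 lay so near 0, between 2 single arrays, that their side is not resolved. These differences between lines were not tested either, and FOXA1 was lower on the FoxA1-labelled array in PC-3M as in LNCaP.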

How the results depend on the processing

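Of 233 recomputed values, 186 stayed near the reported value, 26 moved, 17 fell in count, 1 rose and 3 turned direction. Near was set by the residual spread of the fit for a difference and by a fold limit for a count. This is a wide limit for DDC: its 22RV1 difference of -1.20 counted as near at -0.72 without background correction, below 2-fold. DDC stayed lower in shFoxA1 under each of the 18 settings of the LNCaP fit, the reported one included (-3.48 to -2.35, and -3.13 to -2.78 with numbered replicates left out), and MAOA stayed higher (0.55, with no normalization between arrays, to 0.93, and 0.81 to 0.93 with numbered replicates left out). The number of genes past the test was 939, but 390 without background correction, 1456 with median scaling, 188 in the deposited matrix, 312 with the numbered pairs only, 123 without the medium term, 265 without a filter and 52 without the R1881 pair. Leaving out shCtrl replicate 1 gave 210, shCtrl replicate 2 gave 133, shFoxA1 replicate 2 gave 124 and the whole replicate 2 pair gave 2, and the range over such omissions was 2 to 732. With the replicate number as a block it was 527, with 4 list genes, and with crossed numbers, added after seeing the data, 1138. Of the list genes 4 passed, but 2 in the deposited matrix, 2 without the medium term, 2 without shCtrl replicate 2, 1 with the numbered pairs only, 0 without the R1881 pair and 0 to 4 with replicates left out; limma was the only tool run. Median scaling put the median difference of all genes at -0.15 and no normalization, also added later, at -0.23, against -0.0070.

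In single pairs, an offset of 50 gave DDC -2.73 in replicate 1 and -2.00 in replicate 2, where DDC was undetected in shFoxA1. With no normalization DDC was -4.08 with R1881, and MAOA was -0.21 with R1881, 0.90 in hormone-deprived medium, 1.03 in 22RV1 and 0.86 for R1881 minus hormone-deprived in shCtrl. Median scaling gave MAOA 0.019, 1.18 and 0.71 for the R1881 pair, 22RV1 and that same contrast. HNMT turned to -0.031 in replicate 1 with no normalization and to -0.22 with its other probe in the siRNA pair. The causes were not tested. The alternatives for bounds, 2-fold counts, ranks and nearest genes were also added after seeing the data. AOC1 in the hormone-deprived pair ran from 2.60 with an offset of 50 to 4.40 without background correction. Undetected probes, most of those of MAOB, AOC1 and HNMT in LNCaP, give only bounds.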

Other observations

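Besides the 4 amine pathway genes past the test, 5 others reached 2-fold with both arrays detected, each in 1 knockdown or PC-3M pair (GCHFR, FLAD1, HTR3A, INMT and HTR1E). SLC7A5 in replicate 1 and ADRA2B in replicate 2 did so only against an undetected array, where the bounds were at least 1.87-fold lower and at least 1.90-fold higher in shFoxA1. The values given here were chosen after they were seen. RNLS, the flavin enzyme renalase, lay on opposite sides in 2 pairs, each with 1 undetected array. It was 6.28 in shFoxA1 and 5.25, undetected, in shCtrl in LNCaP replicate 1, at least 1.93-fold higher, but with siRNA it was 4.51, undetected, in siFoxA1 and 5.97 in siCtrl, at least 2.72-fold lower. In 22RV1 the serotonin-gated channel subunit HTR3A was 7.51 in shFoxA1 and 6.24 in shCtrl (1.27), and INMT, an indolethylamine N-methyltransferase, was 5.95 in shFoxA1 and 4.61 in shCtrl (1.34). In PC-3M the serotonin receptor HTR1E was 5.03 on the array labelled FoxA1 and 6.21 on the control array (-1.17). The dimmer values of INMT and HTR1E lay near the limit of their arrays, 4.46 for 22RV1 shCtrl and 5.01 for PC-3M FoxA1. The sizes of these 2 differences are therefore uncertain. In the hormone-deprived pair 0 of 32 detected list genes reached 2-fold, against 1.14% of all genes higher and 0.657% lower. Between R1881 and hormone-deprived medium 0 of 32 did so in shFoxA1 and 1 of 34 in shCtrl, where ALDH3A2 was 9.09 with R1881 and 10.17 hormone-deprived (-1.07). Of all genes, 1.24% were higher and 1.74% lower with R1881 in shFoxA1, and 1.44% higher and 1.33% lower in shCtrl. With shares this low, such counts do not set the lists apart from all genes. These single pairs have no replicate and no test.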
